A study of Mus musculus with 2 samples.

Results

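The vascular endothelial growth factor (VEGF) genes were followed across the lung cells of 2 genotypes, the *Cebpa* fl/fl control and *Cebpa* ΔSftpc, with 1 library of each. Members were chosen by gene symbol, as the 10 rows of *Vegfa*, *Vegfb*, *Vegfc*, *Vegfd*, *Pgf*, *Flt1*, *Kdr*, *Flt4*, *Nrp1* and *Nrp2* among the 32285 genes counted in each library. The *Cebpa* ΔSftpc mice carried *Sftpc*-CreERT2 and floxed *Cebpa* alleles, so that the promoter of the surfactant gene *Sftpc* drives a tamoxifen-dependent Cre in alveolar type 2 (AT2) cells, and the *Cebpa* fl/fl controls carried the floxed alleles without Cre. Mice received tamoxifen at 75 mg/kg on 5 days, and those studied past 3 months were dosed again in weekly injections. These lungs were collected at 26 weeks, counted from the first dose. The mice had mixed backgrounds and were 3 months old unless otherwise given. Each library pooled 3 mice, whose cells cannot be traced back to an animal, so each genotype was 1 sample with no replicate and no test between genotypes was possible. As the labels name a sort for live cells but the methods a suspension of the whole lung, shares describe what was sequenced and not the organ.

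VEGF-A signals in endothelium mainly through the receptor Kdr (VEGFR2), while Flt1 (VEGFR1) binds VEGF-A tightly with weak kinase activity and so limits the ligand that reaches Kdr. VEGF-B and placental growth factor (Pgf) bind Flt1. VEGF-C and VEGF-D bind Flt4 (VEGFR3), the receptor of lymphatic endothelium, and VEGF-C, once processed, also binds Kdr. Neuropilins lack a catalytic domain and act as co-receptors, Nrp1 mostly beside Kdr and Nrp2 mostly beside Flt4, and both also bind class 3 semaphorins. In the lung, the alveolar capillary bed holds aerocytes, which lie against alveolar type 1 (AT1) cells at the gas exchange surface, and general capillary cells, which can renew the bed. The splice forms of *Vegfa* and the soluble forms of *Flt1* were not told apart by these 3′ counts.

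Upstream sequences are shown for the ligand, the receptors and the co-receptor on which the values below turn. They were taken from the RefSeq promoter table for GRCm38.p6 and run 5′ to 3′ on the gene's strand, from 250 to 51 bases before the annotated start, 200 bases each. Capitals mark the GC box, GGGCGG on either strand. The *Vegfa* window is chr17:46032428-46032627 on the minus strand, that of *Kdr* is chr5:75978506-75978705 on the minus strand, that of *Flt1* is chr5:147726062-147726261 on the minus strand and that of *Nrp2* is chr1:62703067-62703266 on the plus strand.
Vegfa: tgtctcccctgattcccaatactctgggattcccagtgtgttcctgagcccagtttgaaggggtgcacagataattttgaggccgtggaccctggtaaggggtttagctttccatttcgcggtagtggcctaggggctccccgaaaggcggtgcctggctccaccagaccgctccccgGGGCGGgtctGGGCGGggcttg
Kdr: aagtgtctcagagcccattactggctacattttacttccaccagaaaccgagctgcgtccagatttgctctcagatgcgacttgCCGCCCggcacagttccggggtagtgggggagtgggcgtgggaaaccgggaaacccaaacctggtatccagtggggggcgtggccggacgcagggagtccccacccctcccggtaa
Flt1: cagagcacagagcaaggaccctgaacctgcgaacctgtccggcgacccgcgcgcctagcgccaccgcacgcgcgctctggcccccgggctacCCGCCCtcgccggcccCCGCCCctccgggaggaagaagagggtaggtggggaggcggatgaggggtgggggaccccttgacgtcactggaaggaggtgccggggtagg
Nrp2: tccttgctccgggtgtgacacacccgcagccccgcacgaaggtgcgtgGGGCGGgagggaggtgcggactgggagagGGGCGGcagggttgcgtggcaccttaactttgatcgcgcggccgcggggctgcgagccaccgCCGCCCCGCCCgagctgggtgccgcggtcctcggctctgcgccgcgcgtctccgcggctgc
The windows shown lie outside the annotated genes, which GENCODE vM21 (GRCm38) places at chr17:46016993-46032369 for *Vegfa*, chr5:75932827-75978458 for *Kdr*, chr5:147561604-147726011 for *Flt1* and chr1:62703285-62818695 for *Nrp2*. All 10 members were found in the table. Of the windows not shown, those of *Flt4*, *Nrp1* and *Pgf* lay inside the annotated gene and that of *Vegfd* overlapped its start. The counts over 10 windows below therefore mix upstream and genic sequence. *Vegfa* and *Pgf* had 2 starts each in the table, of which the first was used. A GC box was present in 8 of the 10 windows, against 24.6% of the windows of the 32851 starts compared. The *Nrp2* window held 4 matches, of which 1 pair overlapped, and the *Vegfa* and *Flt1* windows held 2 each. The hypoxia response core was searched only as ACGTG, which was in 0 of 10 windows (12.9% of all). Its form GCGTG was not searched, and the *Kdr*, *Flt1* and *Nrp2* windows shown hold it on either strand. The C/EBP core TTGCG was in 2 of 10 (11.6%), the ETS core GGAAG in 5 of 10 (55%) and the CCAAT box CCAAT in 1 of 10 (28.4%), that of *Vegfa*. Both strands were searched, and no match of one motif overlapped a match of another in these windows. The *Nrp2* window was 75.5% G and C and the *Vegfd* window 44.5%, with a median of 51.5% over all windows. These matches describe letters in the window only.

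Filtering left 11487 control cells and 13238 cells of *Cebpa* ΔSftpc mice, with a median of 4835 and 2607 unique molecular identifiers (UMIs), each of which marks 1 captured RNA molecule. A gate on raw counts of marker genes, none of them a member, assigned 83.6% and 69.6% of these cells to a class, and 14 classes had at least 50 cells in both libraries. The libraries shared 45 barcodes. *Cebpa*, the targeted transcription factor gene, had 154 CPM in the control and 120 CPM in the *Cebpa* ΔSftpc library, labelled *Cebpa* KO, in AT2-gated cells (log2 ratio −0.35, 95% interval −0.58 to −0.13). These cells had medians of 21166 and 1585 UMIs, and no *Cebpa* value at equal depth was computed. The study reported significantly diminished Cebpa by immunostaining, qPCR and Western blot of lungs, at an earlier time after tamoxifen. Whether the *Cebpa* counts lie outside the floxed part was not tested. CPM are the UMIs of a gene per 1000000 UMIs of all genes in the cells of a class, with exact Poisson 95% intervals, and log2 ratios are *Cebpa* ΔSftpc over *Cebpa* fl/fl with exact intervals. All intervals cover counting error only. A member entered a comparison if it had at least 50 UMIs in both libraries together, and a difference of at least 2-fold (log2 of 1) was counted.

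*Vegfa*, the main ligand of Kdr, had its highest level in AT1 cells of both libraries and its largest pool in general capillary cells. The 131 AT1 cells of the *Cebpa* fl/fl library held 1798 UMIs of it, or 3081 CPM, and the 79 of the *Cebpa* ΔSftpc library held 187, or 815 CPM. Where a pair of values is given without a name, the *Cebpa* fl/fl value stands first. Arterial cells followed with 517 and 446 CPM, and general capillary cells with 479 and 377 CPM, and in both libraries the intervals of these last 2 classes overlapped. The alveolar fibroblasts that surround the alveoli had 202 and 183 CPM and adventitial fibroblasts 151 and 137 CPM. Aerocytes, the capillary cells with the most *Kdr*, had only 36.8 and 37.7 CPM of *Vegfa*, close to the 37 and 24 CPM of B cells, a class taken as a background, of which the *Cebpa* fl/fl library held only 45 cells. As general capillary cells were numerous, they held 61.2% of all *Vegfa* UMIs of the *Cebpa* fl/fl and 58.0% of those of the *Cebpa* ΔSftpc library. AT1 cells held 10.3% and 1.74%, and AT2 cells 3.95% and 1.49%. The endothelium together held 67.7% and 64.2%, and the epithelium 14.8% and 3.76%. Cells left without a class held 9.65% and 21.6% of the *Vegfa* UMIs. These shares, and those of the other members below, therefore depend on how many cells of each class were loaded and how many were gated.

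**Figure D1:**
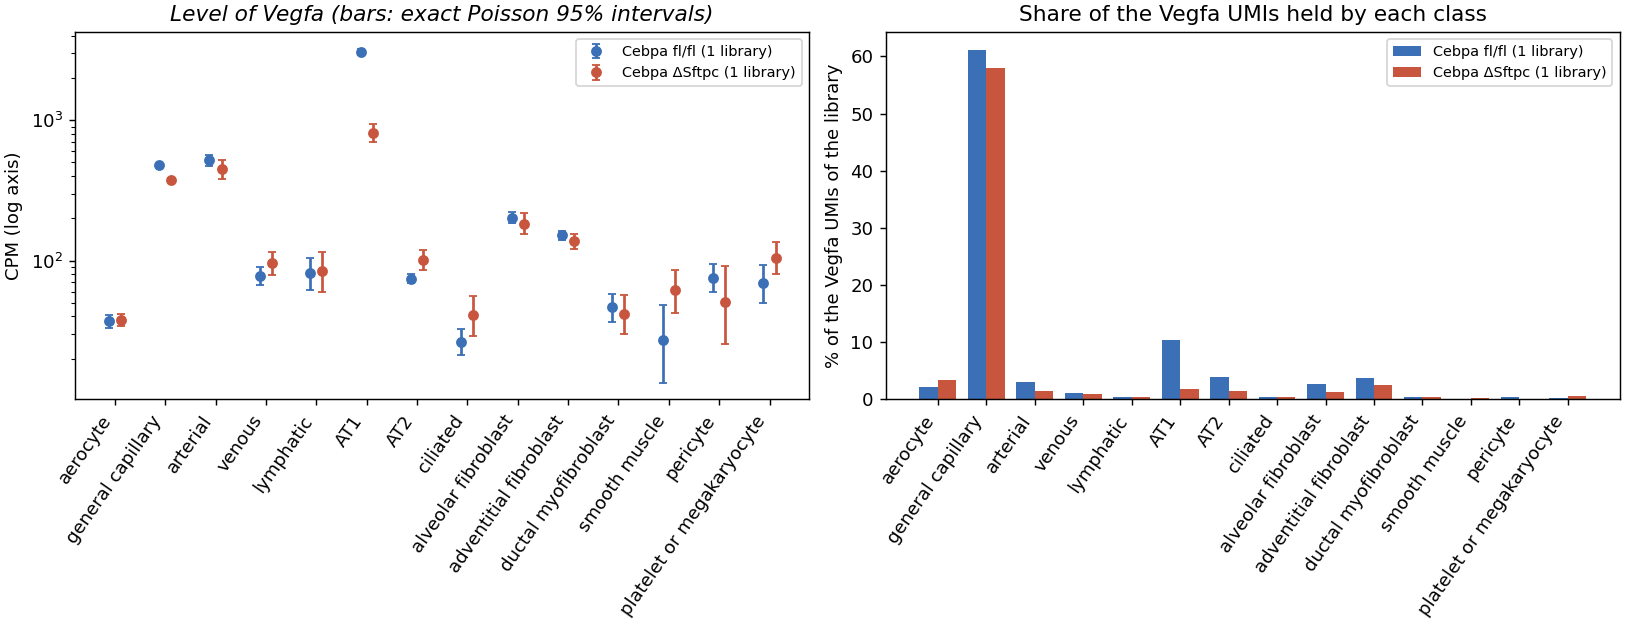
Level of *Vegfa* by cell class in CPM on a log axis, with exact Poisson 95% intervals (left), and the share of all *Vegfa* UMIs of each library held by each class in percent (right), for the *Cebpa* fl/fl (blue) and *Cebpa* ΔSftpc (red) library. AT1 cells had the highest level, 3081 and 815 CPM, and general capillary cells the largest share, 61.2% and 58.0%.

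*Vegfa* in AT1-gated cells was lower in the *Cebpa* ΔSftpc library by 1.92 on the log2 scale (−1.92, interval −2.14 to −1.70). There 60.8% of cells held a UMI, against 61.1% in the *Cebpa* fl/fl library. After each cell was thinned to 1000 UMIs, 72.1% of 86 *Cebpa* fl/fl cells (interval 61.4% to 81.2%) held a *Vegfa* UMI. Of 75 *Cebpa* ΔSftpc cells, 44.0% (32.5% to 55.9%) held one. Of the 187 UMIs in the *Cebpa* ΔSftpc library, 27.3% came from 1 cell. The genes that define AT1 cells were lower in the same cells. *Ager*, a receptor abundant on AT1 cells, differed by −1.74 (−1.83 to −1.65) and *Hopx*, a transcriptional cofactor of AT1 cells, by −1.46 (−1.60 to −1.33). The 5 AT1 genes outside the gate, among them the water channel gene *Aqp5* at −1.06 and *Spock2* at −2.13, were all lower by at least 1.06. In the opposite direction, the sum of the pan-endothelial genes *Cdh5*, *Cldn5*, *Pecam1* and *Tie1* in AT1-gated cells was 434 CPM in the *Cebpa* fl/fl and 2637 CPM in the *Cebpa* ΔSftpc library. Only 3 of 79 *Cebpa* ΔSftpc AT1-gated cells held no UMI of these 4 genes, against 63 of 131. In cells with at least 3 times as many AT1 as endothelial UMIs (123 and 27 cells), *Vegfa* was at 3135 and 1565 CPM, a ratio of −1.002, and scaled by the 5 AT1 genes outside the gate the ratio was −0.49. In the 63 and 3 cells without a pan-endothelial UMI *Vegfa* was at 3053 and 512 CPM (−2.58, −3.58 to −1.73), but the second value rests on 11 UMIs, of which 72.7% came from 1 cell. With free RNA subtracted the ratio was −0.70. For this step the summed profile of all kept cells stood in for free RNA, scaled to remove all *Sftpc*. It removed a fraction of 0.261 of the class profile in the *Cebpa* fl/fl and 0.800 in the *Cebpa* ΔSftpc library. How much of this was free RNA was not tested. The size of the difference ranged widely over these settings, and *Vegfa* was lower in each. Of 5 members compared in AT1 cells, 1 was lower and 2 (*Flt1* and *Kdr*) were higher by 2-fold, in a class where 21.8% of all genes compared passed 2-fold either way.

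**Figure D2:**
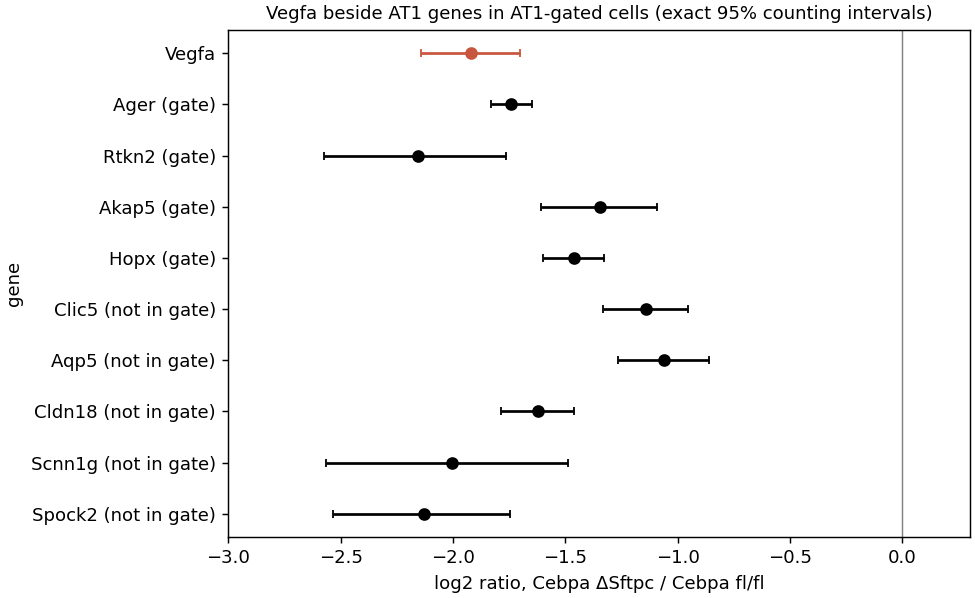
Log2 ratio (*Cebpa* ΔSftpc over *Cebpa* fl/fl) in AT1-gated cells of *Vegfa* (red), the 4 AT1 genes of the gate and the 5 AT1 genes outside it (black), with exact 95% counting intervals. *Vegfa*, at −1.92, lies within the range of the AT1 genes, from −2.16 for *Rtkn2* to −1.06 for *Aqp5*.

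In the other *Vegfa* sources the libraries were closer. General capillary cells had a ratio of −0.35 (−0.39 to −0.30), arterial cells −0.21 (−0.48 to 0.04), alveolar fibroblasts −0.14 (−0.43 to 0.14) and AT2 cells 0.45 (0.19 to 0.70), where the level was 74.1 and 101 CPM. The AT2 cells of the *Cebpa* ΔSftpc library had a median of only 1585 UMIs against 21166 in the *Cebpa* fl/fl library, so this class differed most in depth.

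*Vegfb*, a ligand of Flt1, was low and spread over fibroblasts, AT2 and ciliated cells and endothelium. Its level was below that of the *Cebpa* fl/fl library in 10 of the 10 classes compared, with the interval below 0 in 7 and a median log2 ratio of −0.47. Under alternative settings of gate, depth, scaling or free RNA the direction did not always hold. The highest ratio was then 0.45 in ciliated, 0.23 in ductal myofibroblast, 0.13 in pericyte, 0.05 in lymphatic and 0.005 in AT2 cells, and below 0 in the other classes compared. In the classes with too few UMIs to enter, the ratio was above 0. It was 0.14 in AT1, 0.62 in arterial and 0.28 in smooth muscle cells and 0.60 in platelets or megakaryocytes, each with an interval that included 0. The largest differences were in ciliated cells (41.6 and 17.7 CPM, −1.23) and in venous cells (34.8 and 15.1 CPM, −1.21), where 17 UMIs of the *Cebpa* ΔSftpc library stood behind each value. In ciliated cells with 3000 to 8000 UMIs, a range chosen after seeing the data, the ratio was 0.45, in the opposite direction. In aerocytes it was at 22.8 and 15.8 CPM (−0.53, −0.83 to −0.22) and in general capillary cells at 27.7 and 22.4 CPM (−0.31, −0.50 to −0.12). The median ratio of all genes compared lay between −0.07 and 0.15 in every class.

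*Vegfc*, a ligand of Flt4, had its highest level in venous cells and its largest pool in general capillary cells. Venous cells had 299 and 262 CPM, arterial cells 82.1 and 79.4 CPM and general capillary cells 61.4 and 70.7 CPM. The intervals of the last 2 classes overlapped in the *Cebpa* ΔSftpc library. Of all *Vegfc* UMIs, general capillary cells held 46.0% and 49.3%, venous cells 24.0% and 12.4% and arterial cells 2.80% and 1.22%. Lymphatic cells, which carry its receptor, had 5 and 4 UMIs in all. The ratio was 0.20 (0.09 to 0.32) in general capillary and −0.19 (−0.39 to 0.01) in venous cells.

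*Vegfd*, the other ligand of Flt4, came from fibroblasts. Alveolar fibroblasts had 264 and 241 CPM (−0.13, −0.38 to 0.11), adventitial fibroblasts 203 and 145 CPM (−0.49, −0.68 to −0.29) and smooth muscle cells 68.5 and 70.1 CPM. In both libraries the mesenchyme held most of the *Vegfd* UMIs assigned to a class, 69.1% and 49.8% of all *Vegfd* UMIs. In the other classes the level was at most 23.1 CPM in the *Cebpa* fl/fl library.

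*Pgf*, which binds Flt1, had its highest levels in mural and lymphatic cells and was also found in fibroblasts. Pericytes, the mural cells of capillaries, had 136 and 64.5 CPM (142 and 14 UMIs, −1.07, −1.98 to −0.28), smooth muscle cells 90.5 and 46.7 CPM (−0.95, −1.74 to −0.19) and lymphatic cells 72.9 and 94.4 CPM (0.37, −0.23 to 0.97). Adventitial fibroblasts had 31.2 and 36.8 CPM and ductal myofibroblasts 27.1 and 42.6 CPM. Of all *Pgf* UMIs, adventitial fibroblasts held 22.0% and 19.9% and pericytes 23.3% and 3.71%. Beside it in pericytes, the pan-endothelial sum was 573 and 939 CPM, whose part was not tested, and only 52 pericytes were gated in the *Cebpa* ΔSftpc library against 230. In general capillary cells *Pgf* rested on 21 and 43 UMIs in 4533 and 3108 cells (0.945 and 2.60 CPM, 1.46, 0.68 to 2.29). These UMIs came from only 17 and 23 cells. After thinning, 0.178% (0.0769% to 0.351%) and 0.234% (0.0943% to 0.482%) of cells held a UMI, with intervals that overlapped.

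**Figure D3:**
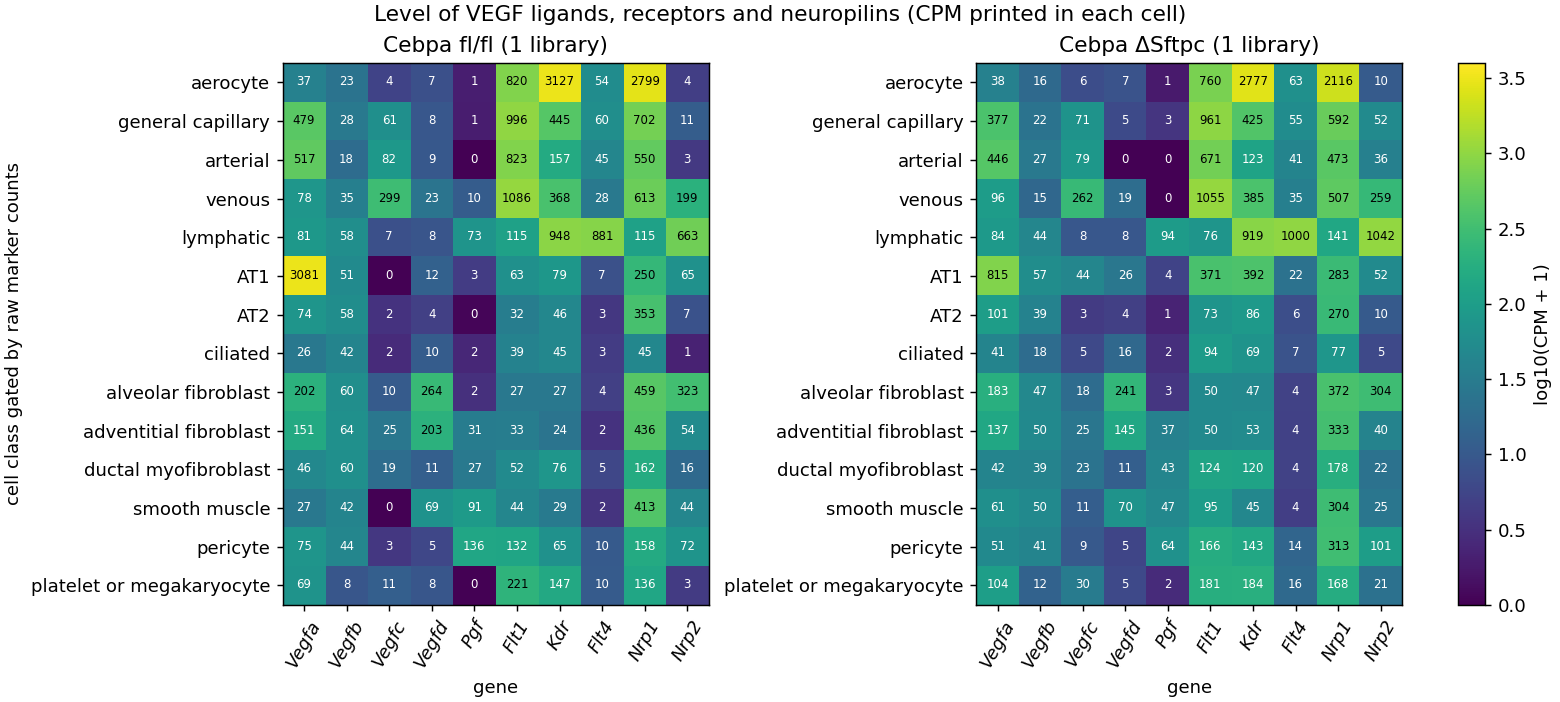
Level of the 10 genes in the 14 cell classes with at least 50 cells in both libraries, as log10(CPM + 1) in colour with the CPM printed, for the *Cebpa* fl/fl (left) and *Cebpa* ΔSftpc (right) library. *Vegfa* peaked in AT1, *Vegfc* in venous, *Vegfd* in alveolar fibroblast and *Pgf* in pericyte cells of the left library, *Kdr* and *Nrp1* in aerocytes and *Flt4* and *Nrp2* in lymphatic cells.

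*Flt1* was even over the blood vessels and low in lymphatic cells. It was at 1086 and 1055 CPM in venous, 996 and 961 CPM in general capillary, 823 and 671 CPM in arterial and 820 and 760 CPM in aerocyte cells. Lymphatic cells had 115 and 75.5 CPM, and B cells 27 and 57 CPM. The ratio was −0.05 (−0.08 to −0.02) in general capillary cells, −0.04 (−0.14 to 0.06) in venous cells, −0.11 (−0.16 to −0.06) in aerocytes and −0.30 (−0.51 to −0.09) in arterial cells. It was −0.61 (−1.21 to −0.035) in lymphatic cells, on 87 and 36 UMIs. Over 11 alternative settings this lymphatic ratio ran from −2.43 to 1.77 and changed sign in 2. In the *Cebpa* fl/fl library the values of arterial cells and aerocytes did not differ beyond their intervals.

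*Kdr* was uneven. Aerocytes had 3127 and 2777 CPM (−0.17, −0.20 to −0.15), and held 65.6% and 61.2% of all *Kdr* UMIs. Lymphatic cells had 948 and 919 CPM (−0.04, −0.22 to 0.13), general capillary cells 445 and 425 CPM (−0.07, −0.11 to −0.02), venous cells 368 and 385 CPM (0.07, −0.10 to 0.23) and arterial cells 157 and 123 CPM (−0.35, −0.86 to 0.13). After thinning to 1000 UMIs, 93.0% and 86.1% of aerocytes held a *Kdr* UMI, against 34.5% and 32.3% of general capillary cells.

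The balance of the 2 receptors of VEGF-A separated the endothelial classes. Aerocytes had 3.81 *Kdr* UMIs per *Flt1* UMI (interval 3.72 to 3.91) in the *Cebpa* fl/fl and 3.66 (3.56 to 3.75) in the *Cebpa* ΔSftpc library, lymphatic cells 8.22 and 12.2, general capillary cells 0.447 and 0.442, venous cells 0.338 and 0.365 and arterial cells 0.191 and 0.184. The intervals of the libraries overlapped in each of these 5 classes. A UMI counts molecules of either gene, but capture can differ between transcripts, so the order of classes can be read and not the absolute balance of the receptors.

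*Flt4* was at 881 and 1000 CPM in lymphatic cells (0.18, 0.01 to 0.36), far above the other classes. The direction of that ratio turned with the weight of deep cells, to −0.22 as the mean of the CPM of each cell and −0.35 after thinning. Of lymphatic cells, which differed in depth, 94.7% and 71.3% held a UMI. After thinning, 56.25% (47.2% to 65.0%) and 52.4% (42.4% to 62.4%) did, with intervals that overlapped. General capillary cells had 59.5 and 54.7 CPM (−0.12, −0.25 to 0.00) and aerocytes 54.5 and 62.9 CPM (0.21, 0.04 to 0.38). Because of their number, general capillary cells nonetheless held 44.2% and 35.0% of all *Flt4* UMIs, and lymphatic cells 22.2% and 18.5%. Arterial and venous cells had 44.5 and 41.1 CPM and 27.7 and 34.7 CPM.

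**Figure D4:**
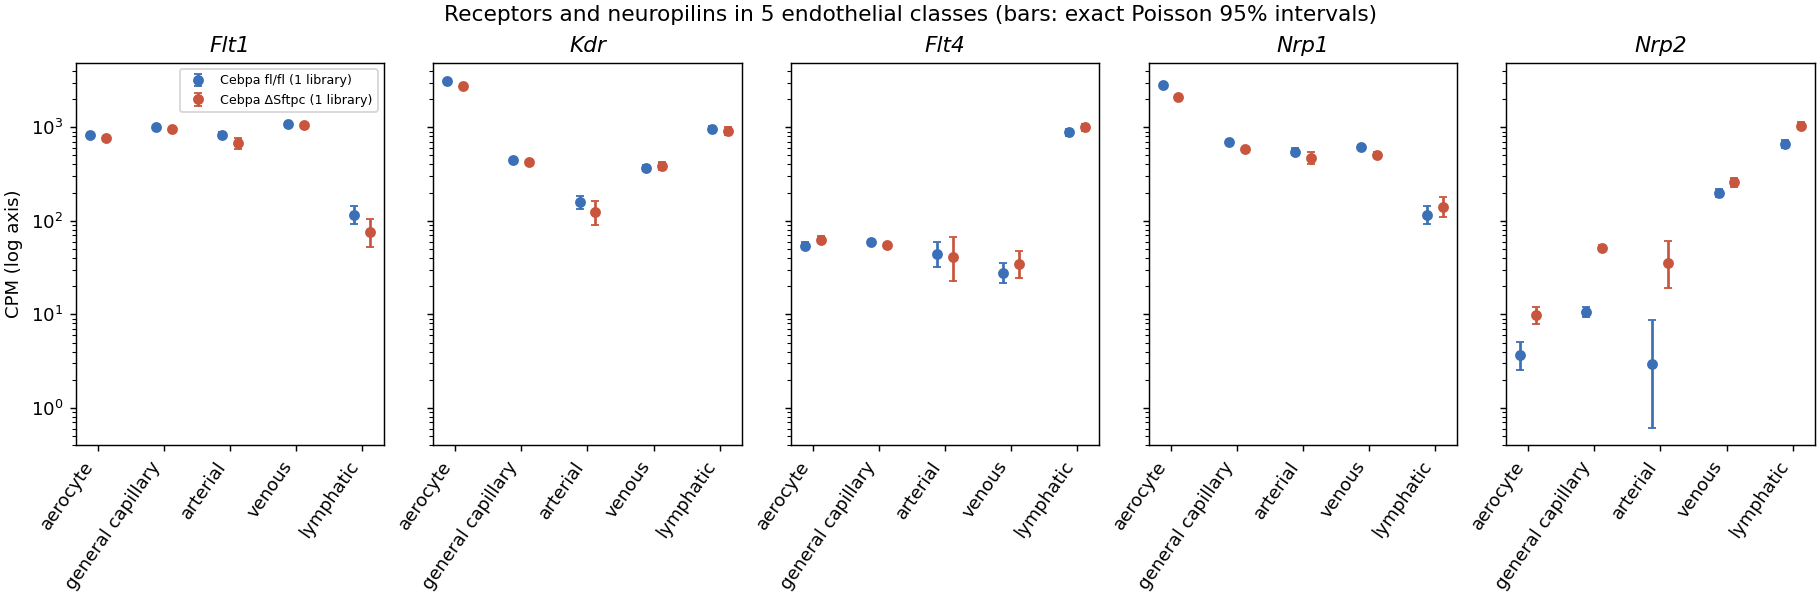
Level of the 3 receptors and 2 neuropilins in 5 endothelial classes, in CPM on a log axis with exact Poisson 95% intervals, for the *Cebpa* fl/fl (blue) and *Cebpa* ΔSftpc (red) library. The points of both libraries lie within 2-fold of each other for *Flt1*, *Kdr* and *Flt4*, farthest apart for *Flt1* in lymphatic cells at 115 and 75.5 CPM, while *Nrp2* in general capillary cells was at 10.6 and 51.5 CPM.

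*Nrp1*, the co-receptor of Kdr, followed *Kdr* in aerocytes but was found far more widely. It was at 2799 and 2116 CPM in aerocytes (−0.40, −0.43 to −0.38), 702 and 592 CPM in general capillary (−0.25, −0.28 to −0.21), 613 and 507 CPM in venous (−0.27, −0.42 to −0.13) and 550 and 473 CPM in arterial cells (−0.22, −0.47 to 0.03). Among aerocytes thinned to 1000 UMIs, 91.2% and 79.5% held a UMI. Outside the endothelium it was at 459 and 372 CPM in alveolar fibroblasts, 436 and 333 CPM in adventitial fibroblasts, 413 and 304 CPM in smooth muscle cells and 353 and 270 CPM in AT2 cells, with ratios from −0.44 to −0.30. *Nrp1* was lower in the *Cebpa* ΔSftpc library in each of these 8 classes, and the interval stayed below 0 in 7. In the other 6 of the 14 classes the ratio was above 0. The interval stayed above 0 in pericytes, with 158 and 313 CPM (0.99, 0.56 to 1.41), beside the higher pan-endothelial sum given above, and in ciliated cells, with 45.0 and 77.1 CPM (0.78, 0.36 to 1.19). It included 0 in platelets or megakaryocytes (0.31), lymphatic cells (0.29), AT1 cells (0.18) and ductal myofibroblasts (0.13).

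*Nrp2*, the co-receptor of Flt4, was the member that differed most between the libraries in the capillaries. In general capillary cells it was at 10.6 CPM (235 UMIs) and 51.5 CPM (852 UMIs), a log2 ratio of 2.28 (2.07 to 2.50), and was higher by 2-fold under each of 12 alternatives. The share of cells with a UMI was 3.77% and 14.9%, and after thinning 0.846% (0.599% to 1.16%) and 3.82% (3.16% to 4.57%). Of the 171 and 464 cells with a UMI, 129 and 304 held only 1, and 15 and 82 held 3 or more. B cells had 13.4 CPM of *Nrp2* in either library, but the *Cebpa* fl/fl value rests on 4 UMIs in 45 cells (3.65 to 34.3 CPM). In that library the level was 1.21 CPM in ciliated, 2.97 CPM in arterial and 7.11 CPM in AT2 cells.

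General capillary cells with an *Nrp2* UMI, which were deeper (medians of 6212 and 6916 UMIs against 4440 and 4582 in those without), also had higher CPM of venous genes. *Slc6a2*, a venous marker of the lung that encodes the noradrenaline transporter, was at 46.6 CPM in cells with *Nrp2* and 11.3 CPM in cells without in the *Cebpa* fl/fl library, and at 45.2 and 19.0 CPM in the *Cebpa* ΔSftpc library. *Selp*, which encodes the adhesion molecule P-selectin, was at 3.39 and 0.333 CPM, on only 4 and 7 UMIs, and at 30.7 and 2.51 CPM, on 104 and 33 UMIs. *Vegfa* was lower in cells with *Nrp2*, at 307 against 489 CPM and at 333 against 389 CPM. *Prox1*, the lymphatic transcription factor gene, had 0 and 1 UMIs in the cells with *Nrp2* of the 2 libraries, and the general capillary genes *Gpihbp1* and *Kit* were at 1286 and 569 CPM and at 1222 and 606 CPM in them. In cells without *Nrp2* both were higher, at 1620 and 739 CPM and at 1310 and 722 CPM. Among the other gate genes, *Sema3c* was also higher without *Nrp2*, at 1679 against 1419 CPM and at 1913 against 1447 CPM. *Aplnr* went the other way and was higher in cells with *Nrp2*, at 170 against 137 CPM and at 158 against 129 CPM. In an alternative chosen after seeing the data, cells with a UMI of any of 7 venous genes were left out, and the remaining 3659 and 2196 cells had 8.05 and 33.8 CPM of *Nrp2*, a ratio of 2.07. A change of level within a cell type and a change in which cells pass the gate cannot be told apart here.

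*Nrp2* was higher in the *Cebpa* ΔSftpc library in other vessels as well. Aerocytes had 3.64 and 9.75 CPM (36 and 93 UMIs, 1.42, 0.85 to 2.02), against the 13.4 CPM of B cells. Venous cells had 199 and 259 CPM (0.38, 0.16 to 0.59) and lymphatic cells 663 and 1042 CPM (0.65, 0.47 to 0.84). Arterial cells held 3 and 13 UMIs, too few to enter. The share of lymphatic cells with a UMI was not higher, as 84.1% and 62.6% of lymphatic cells held a UMI and, after thinning, 43.8% and 38.8%, and the ratio was 0.18 both as the mean of the CPM of each cell and after thinning. Outside the vessels, alveolar fibroblasts had 323 and 304 CPM (−0.08, −0.31 to 0.13) and adventitial fibroblasts 53.6 and 39.7 CPM (−0.43, −0.82 to −0.06).

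**Figure D5:**
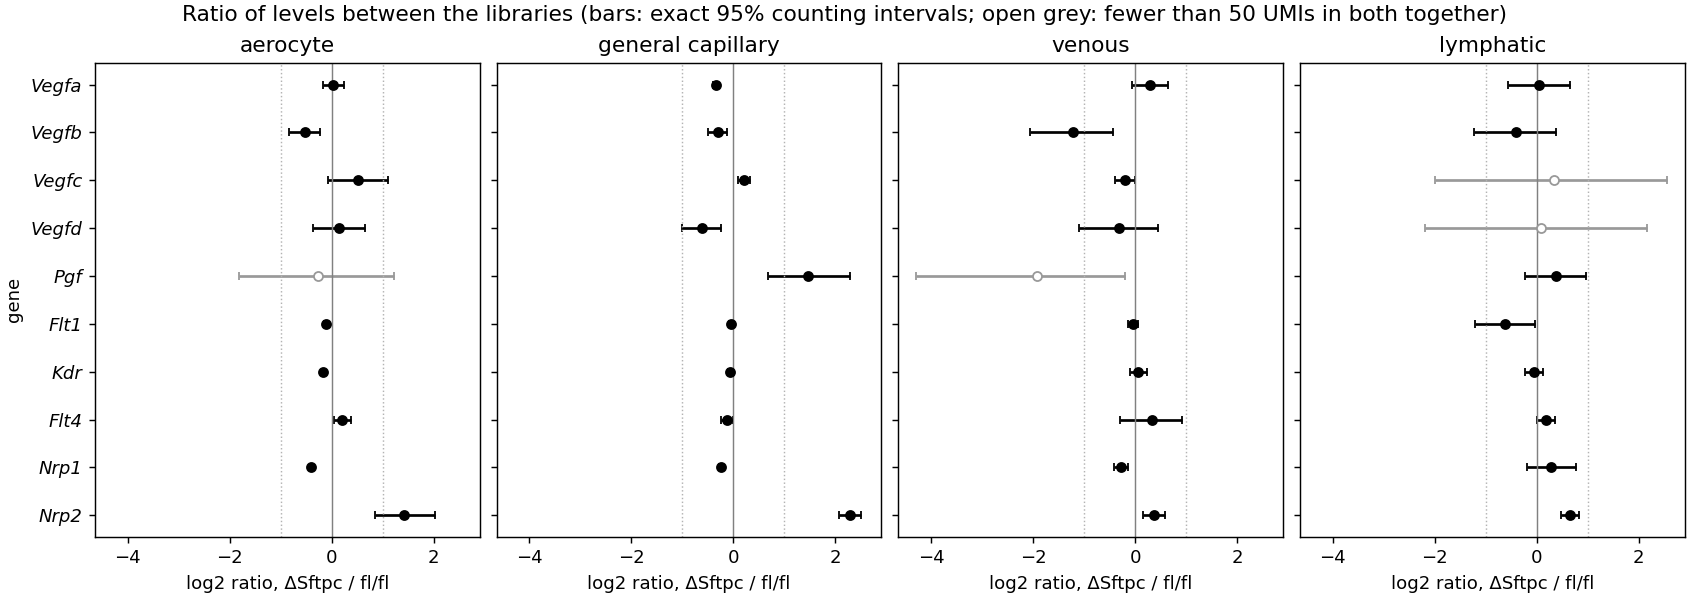
Log2 ratio of the level (*Cebpa* ΔSftpc over *Cebpa* fl/fl) of each gene in 4 endothelial classes, with exact 95% counting intervals, dotted lines at 2-fold, and open grey points for genes with fewer than 50 UMIs. Most filled points lie within 2-fold of 0, and *Nrp2* in general capillary cells lies at 2.28.

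Counted by class, few members passed 2-fold in the vessels. In general capillary cells 2 of 10 members, *Pgf* and *Nrp2*, were higher and none was lower, against 6.38% of the 12373 genes compared that passed either way, 5.42% higher and 0.962% lower. In aerocytes 1 of 9, *Nrp2*, was higher, against 4.99% of 11054 genes either way, 4.41% higher and 0.588% lower. In venous cells 1 of 9 passed, *Vegfb*, against 1.62% of 7668 genes. None of 6 members in arterial cells and none of 8 in lymphatic cells passed, against 3.82% of 4577 and 3.45% of 4499 genes. Outside the endothelium, 1 of 6 members passed in AT2 cells, *Flt1* (5.04% of genes), 2 of 5 in ciliated cells, *Vegfb* and *Flt1* (3.74%), 1 of 9 in adventitial fibroblasts, *Kdr* (2.33%, with a ratio of −0.62 in cells with at least 3000 UMIs and −0.25 in those with 3000 to 8000, a range added after seeing the data), 1 of 7 in ductal myofibroblasts, *Flt1* (4.8%), 1 of 4 in smooth muscle cells, *Flt1* (3.99%) and 2 of 7 in pericytes, *Pgf* and *Kdr* (4.98%). None of 7 passed in alveolar fibroblasts (2.77%) and none of 4 in platelets or megakaryocytes (7.81%). The median ratio of the members was 0.03 in aerocytes, −0.09 in general capillary, −0.21 in arterial, −0.04 in venous and 0.12 in lymphatic cells, with medians of all genes between −0.05 and 0.03.

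Outside the endothelium, *Flt1* and *Kdr* were mostly higher in the *Cebpa* ΔSftpc library. Over the 9 other classes the ratio of *Flt1* was above 0 in 8 and that of *Kdr* in 9. The *Kdr* count takes in smooth muscle cells, with 12 and 25 UMIs, too few to enter a comparison. Among these ratios above 0, the interval included 0 for that one, for *Kdr* in platelets or megakaryocytes (−0.10 to 0.74) and for *Flt1* in pericytes (−0.24 to 0.87). The pan-endothelial sum was higher in 9, by log2 ratios of 0.46 to 2.60. In AT2 cells *Flt1* was at 32.1 and 72.9 CPM (1.18) and *Kdr* at 45.8 and 86.1 CPM (0.91), beside a pan-endothelial sum of 239 and 543 CPM (1.19). In AT1 cells *Flt1* was at 63.4 and 371 CPM (2.55) and *Kdr* at 78.8 and 392 CPM (2.32), beside a sum of 434 and 2637 CPM (2.60). In B cells of the *Cebpa* ΔSftpc library *Flt1* was at 57 and *Kdr* at 58 CPM, below the AT2 values by little and far below the AT1 values. In the AT1 cells with at least 3 times as many AT1 as endothelial UMIs, *Flt1* was at 45.5 and 177 CPM and *Kdr* at 57.7 and 82.4 CPM. With free RNA subtracted, the ratios of *Flt1* and *Kdr* in ciliated cells were 1.48 and 0.55 and those in alveolar fibroblasts 1.11 and 0.51. In platelets or megakaryocytes they were −4.35 and −3.25. There the *Cebpa* ΔSftpc sums of both genes fell to 0 and were raised to the floor, so these values cannot be read. In AT1 and AT2 cells no more than 3 counts of either gene were left in both libraries, so no ratio was taken. The profile subtracted was that of all kept cells and includes the endothelium, which held most of both genes. This loss of counts therefore says nothing about AT1 and AT2 cells. Several of these directions turned with depth or gate. The lowest ratio over the alternatives was −0.12 for *Kdr* in AT2, −0.92 for *Kdr* in ciliated and −1.06 for *Kdr* in ductal myofibroblast cells, and −1.09 and −1.22 for *Flt1* in adventitial fibroblasts and pericytes.

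The rest of the pathway was described in aerocytes and general capillary cells with 6 lists of 53 genes. Of all genes compared in aerocytes, 4.41% were higher and 0.588% lower by 2-fold, with a median log2 ratio of 0.03. In general capillary cells 5.42% were higher and 0.962% lower, with a median of −0.0009. These shares stand beside the counts of all 6 lists. Of genes known to follow VEGF signalling in endothelium, 2 of 8 in aerocytes were higher by 2-fold and 1 was lower, and 4 of 9 in general capillary cells were higher, with medians of 0.48 and 0.58. Those that were higher are mostly immediate-early genes, which many stimuli induce. *Egr3* had ratios of 1.53 and 1.15, *Nr4a1* 1.20 and 1.10 and *Nr4a2*, another nuclear receptor, 0.87 and 1.56, in aerocytes and general capillary cells. *Cd34*, a sialomucin of the endothelial surface, was at 129 and 306 CPM in general capillary cells (1.24) and at 853 and 1116 CPM in aerocytes (0.39). *Esm1*, a secreted proteoglycan gene of tip cells, went the other way, at 7.38 and 2.52 CPM in aerocytes (−1.55) and 36.6 and 26.6 CPM in general capillary cells (−0.46). *Dll4*, the Notch ligand, had ratios of −0.02 and −0.43.

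Among signalling genes and brakes, 1 of 10 in aerocytes and 2 of 11 in general capillary cells were higher by 2-fold and none was lower, with medians of 0.07 and 0.08. *Spry4*, an inhibitor of the MAP kinase pathway below the receptors, was at 9.20 and 49.5 CPM in aerocytes (2.43, 2.10 to 2.77) and at 41.3 and 96.3 CPM in general capillary cells (1.22, 1.10 to 1.34). *Ptprb*, which encodes the endothelial phosphatase that acts on Tek and Kdr, was at 439 and 291 CPM (−0.59) and at 3737 and 2565 CPM (−0.54).

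Semaphorins and plexins, the other partners of the neuropilins, had 1 of 9 genes higher by 2-fold in aerocytes, *Sema3b* (22.3 and 45.8 CPM, 1.04), and none of 9 in general capillary cells, where *Sema3b* was at 0.99 and the receptor gene *Plxna1* at −0.70. *Sema3c*, counted in this list, is also a gate gene of general capillary cells. In oxygen sensing, which acts upstream of *Vegfa*, 0 of 7 genes passed 2-fold in either class. *Hif1a* had ratios of 0.42 and 0.56, and *Epas1*, its endothelial relative, −0.00 and −0.29. Of genes that process VEGF-C, 0 of 4 passed in aerocytes and 1 of 4 in general capillary cells, *Ccbe1*, on 56 and 18 UMIs (−1.21, −2.07 to −0.42). Of the angiopoietin and Tie genes, 1 of 4 was lower in aerocytes, *Angpt2*, which antagonises Tek and is made by activated endothelium (12.7 and 5.87 CPM, −1.12), and it had a ratio of −0.97 in general capillary cells (41.8 and 21.3 CPM). In general capillary cells 1 of 6 was higher, the angiopoietin-like *Angptl4*, itself no angiopoietin or Tie gene, on 13 and 38 UMIs (1.97). The receptor gene *Tek* was at 832 and 599 CPM there (−0.47). *Tie1*, counted in the angiopoietin and Tie list, is also one of the pan-endothelial genes of the gate.

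Each member was set beside the genes whose log2(CPM + 10) was most alike over the 14 classes, as a mean Pearson r of both libraries over 11707 genes, given as a description since classes of 1 library share depth and free RNA. *Flt1* was closest to *Cyyr1* (0.967), *Clec14a* (0.967) and *Adgrl4* (0.962), the last 2 endothelial surface genes. *Kdr* was closest to *Ces2e* (0.947), *S1pr4* (0.944) and the mechanosensitive channel gene *Piezo2* (0.942), and *Flt4* to *Stab1* (0.910), *Slfn3* (0.909) and *Map4k2* (0.903). *Vegfd* was closest to *Fn1* (0.917), the fibronectin gene, *Tmem119* (0.916) and *Unc5c* (0.899), *Vegfc* to *Prcp* (0.927), *Abcb1a* (0.916) and *Adam15* (0.900), and *Pgf* to *Rgs7bp* (0.875), *Dennd2a* (0.875) and *Hoxb3os* (0.871). *Vegfa* (*Amotl2*, 0.781), *Vegfb* (*Zhx2*, 0.812), *Nrp1* (*Smarca2*, 0.834) and *Nrp2* (*Tgfbr2*, 0.811) had no gene as close. The profile of a member over the 14 classes in the 1 library resembled that in the other, with r from 0.764 for *Vegfb* to 0.988 for *Flt4*.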

How the data were processed

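Droplet 3′ scRNA-Seq counts of 2 libraries were used. Whole UMI counts per gene and cell were deposited by the authors without normalization. They were made on mm10 with Cell Ranger, as version 6.1.1 in the submitters' processing notes and 5.0.0 in the file header. Members and lists were chosen with earlier results of these data known. The study's cell filter was applied, which asks for 200 genes and no more than 20% of counts from mitochondria.

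A cell entered a class with at least 3 UMIs from at least 2 of 4 or 5 gate genes and 2 times the count of the next class, and endothelial classes also needed 2 UMIs of *Cdh5*, *Cldn5*, *Pecam1* or *Tie1*. Cells between classes were left out (6.52% and 12.5%), and no doublet caller was run. Sums were floored at 3 counts in ratios. The genes named are the members, up to 2 in each direction per list and class by size of ratio, and 3 most alike genes per member. *Egr3* and *Nr4a1* in general capillary cells, *Nr4a2* and *Cd34* in aerocytes, and the genes set beside *Vegfa* in AT1 cells and beside *Nrp2* in general capillary cells were named after their values were seen. The intervals were tested only on simulated Poisson counts, the error they assume. The gate was tested on cells of a fixed depth, simulated from gated *Cebpa* fl/fl profiles with a small background. Neither test covers shallow or strongly mixed cells, such as many AT1-gated cells. Alternatives changed the gate, depth, scaling and free RNA. Free RNA was not measured from empty droplets. The summed profile of all kept cells of a library was subtracted instead, scaled to remove all *Sftpc*, or all *Scgb1a1* in AT2 cells. Gene symbols were matched to GENCODE vM21 (GRCm38) and RefSeq tables. Python 3.11.15, numpy 2.4.6, pandas 2.3.3, scipy 1.17.1 and matplotlib 3.10.9 were used.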

Additional observations from a re-analysis of the deposited data

Results flagged for a closer look

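*Pgf* had ratios of opposite direction in different classes, 1.46 in general capillary cells (21 and 43 UMIs) and −1.07 in pericytes (142 and 14 UMIs), with intervals on either side of 0. The difference between the classes was not tested, as each genotype was 1 library.

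Some immune classes were not compared because they had fewer than 50 cells in the *Cebpa* fl/fl library (2 alveolar and 25 interstitial macrophages). In the *Cebpa* ΔSftpc library, 301 alveolar macrophages had 322 CPM of *Flt1* and 116 CPM of *Nrp2*, and 154 interstitial macrophages had 255 CPM of *Nrp1* and 93.0 CPM of *Nrp2*. B cells of that library had 57.1, 13.4 and 51.5 CPM of *Flt1*, *Nrp2* and *Nrp1*. *Kdr* was at 42.9 CPM in the alveolar macrophages, beside their 322 CPM of *Flt1*. The whole *Cebpa* ΔSftpc library had 671 CPM of *Kdr* and 531 CPM of *Flt1*. The part of free RNA in these values was not tested.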

How the results depend on the processing

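Of 1053 values for 96 results under 14 alternatives, 844 stayed within the counting interval of the reported value, 206 moved beyond it without reversing a difference of 2-fold and 3 reversed one. Of all values, 90, from 48 results, had the opposite sign to the reported ratio, most of them for ratios under 2-fold. *Vegfb* in ciliated cells was 0.45 in cells with 3000 to 8000 UMIs. *Kdr* in adventitial fibroblasts was −0.62 in cells with at least 3000 UMIs and −0.25 in those with 3000 to 8000, a range chosen after seeing the data. With at least 3000 UMIs, log2 ratios were −0.39 for *Vegfa*, −0.11 for *Kdr* and −0.34 for *Nrp1* in aerocytes, −0.0229 for *Flt1* in general capillary and 0.86 for *Nrp2* in lymphatic cells. With 3000 to 8000 UMIs they were 0.42, −0.13 and −0.29 for the same 3 genes in aerocytes, 0.0387, −0.14 and −0.16 for *Flt1*, *Kdr* and *Nrp1* in general capillary cells, −0.0370 for *Flt1* in arterial cells, 0.36 for *Flt4* in lymphatic cells and 0.72 for *Vegfa* in AT2 cells. As the mean of the CPM of each cell they were 0.76, −0.33 and −0.57 in aerocytes, −0.11, −0.0163 and −0.20 in general capillary cells, −0.22 and 0.18 for *Flt4* and *Nrp2* in lymphatic cells, and −1.09 and 0.77 for *Vegfa* in AT1 and AT2 cells. Thinned to 1000 UMIs they were 1.25, −0.34 and −0.52 in aerocytes, −0.35 and 0.18 for *Flt4* and *Nrp2* in lymphatic cells, −1.41 and 1.01 for *Vegfa* in AT1 and AT2 cells and −0.63 for *Vegfd* in alveolar fibroblasts. With free RNA subtracted *Flt1* in general capillary cells was −0.0229 and *Vegfa* in AT1 cells −0.70. *Vegfa* in AT2 cells was then 6.85, because the *Cebpa* fl/fl sum fell to 0 and was raised to the floor, so this value cannot be read. With the first gate gene left out *Vegfa* was −2.43 in AT1 and 0.73 in AT2 cells, with a lead of 4 times −1.69 in AT1 cells, and without the 2% of cells with the most UMIs 1.01 in AT2 cells. In AT1 cells with 3 times as many AT1 as endothelial UMIs it was −1.002 and scaled by AT1 genes −0.49, both chosen after seeing the data. The cause of the other movements was not tested. No paired analysis was possible because each genotype was 1 library, and no replicate could be left out for the same reason.

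The median depth of the cells was 4835 UMIs in the *Cebpa* fl/fl and 2607 in the *Cebpa* ΔSftpc library, and in aerocytes 6546 and 2560, so shares of cells with a UMI are comparable only after thinning. *Vegfa* in aerocytes took either direction with depth and is not read. Members with few UMIs, such as *Pgf* in general capillary and *Vegfb* in venous cells, are limited by counting.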
